A study of Mus musculus with 3 samples.

Results

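The germ cells that escape depletion from fetal ovarian somatic cells (FOSCs) were examined for 9 germline genes of RNA binding and the piRNA pathway: Nanos3, Dnd1, Dazl, Ddx4, Tdrd9, Piwil2, Tdrd1, Stk31 and Mael. These 9 of the 18738 genes in the count tables were taken by name, with earlier results of these data known. Their values played no part in the choice of cells. The samples were 3 cryopreserved lots of FOSCs (lots 26, 29 and 30) profiled by 10X Genomics scRNA-seq after thaw. Each lot pooled dissociated E12.5 ovaries, freed of the mesonephros, from embryos of 10 pregnant CD1 mice. Germ cells and endothelial cells had been reduced in it by magnetic-activated cell sorting (MACS) with antibodies to SSEA1 and CD31. All lots belong to 1 condition, so the comparisons are between cell classes and between germ cells within the lots (n = 3 lots), and the germ cells are those that the antibodies left behind, not an unselected sample of the gonad.

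Germ cells rely on RNA-binding proteins to protect, repress or translate their messages. NANOS3 and DND1 preserve primordial germ cells (PGCs), DAZL licenses the cells to answer signals for sexual differentiation, and DDX4 (VASA) is an RNA helicase that marks germ granules. In these granules PIWI proteins are loaded with piRNAs that silence transposons, on a scaffold of Tudor domain proteins. Around E12.5 the germ cells of a mouse ovary stop being proliferating PGCs and begin to prepare for meiosis, for which the retinoic acid responsive gene Stra8 is the usual marker.

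The 5′ flanks of the genes are shown because several of the genes carry the same letters there. RefSeq promoter windows (GRCm38.p6) of 300 bases, from 250 before to 50 after a start, were matched by symbol for 7 of the 9 genes. These 7 genes had 10 windows, and a gene was counted where any of its windows held the letters. The shares given beside the counts are of single windows, so the units differ. The palindrome CACGTG (E-box) was found in the windows of 5 of the 7 genes, Ddx4, Mael, Stk31, Tdrd1 and Tdrd9, against 7.15% of the 32851 windows in the table. The letters GCGCATGC, searched on both strands and chosen after the sequences had been read, occurred in Dazl, Stk31 and Tdrd9, against 2.71% of all windows. GCGGGA, searched on both strands, occurred in Ddx4 and Mael, against 19.98% of all windows, and TATAAA in Stk31 and in a later start of Tdrd1, against 13.6%. No motif overlapped another. Below are bases of these windows before the RefSeq start that lie in no annotated exon, 5′ to 3′ on the gene's strand. The Nanos3 stretch lies inside the GENCODE span of the gene, in the intron of a transcript that starts further upstream. The letters are printed with CACGTG, GCGCATGC and GCGGGA (or their reverse complements) in capitals.
Mael (chr1:166238748-166238994, minus strand): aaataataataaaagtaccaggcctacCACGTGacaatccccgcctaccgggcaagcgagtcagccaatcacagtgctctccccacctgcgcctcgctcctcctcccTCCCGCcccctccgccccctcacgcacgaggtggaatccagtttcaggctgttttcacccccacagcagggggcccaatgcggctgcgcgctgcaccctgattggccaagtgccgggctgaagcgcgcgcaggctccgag
Stk31 (chr6:49395289-49395538, plus strand): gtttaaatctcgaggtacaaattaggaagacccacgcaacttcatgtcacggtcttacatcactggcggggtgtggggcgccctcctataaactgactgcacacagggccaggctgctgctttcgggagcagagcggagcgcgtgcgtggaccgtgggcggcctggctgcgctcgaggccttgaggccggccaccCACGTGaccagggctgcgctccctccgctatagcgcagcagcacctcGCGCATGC
Tdrd1 (chr19:56825959-56826208, plus strand): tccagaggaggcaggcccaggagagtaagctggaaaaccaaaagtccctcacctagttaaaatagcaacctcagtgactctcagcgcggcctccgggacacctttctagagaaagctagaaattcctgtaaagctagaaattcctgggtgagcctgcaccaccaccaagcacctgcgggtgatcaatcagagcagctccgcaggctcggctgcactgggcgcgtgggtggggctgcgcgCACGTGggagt
Tdrd9 (chr12:111971309-111971558, plus strand): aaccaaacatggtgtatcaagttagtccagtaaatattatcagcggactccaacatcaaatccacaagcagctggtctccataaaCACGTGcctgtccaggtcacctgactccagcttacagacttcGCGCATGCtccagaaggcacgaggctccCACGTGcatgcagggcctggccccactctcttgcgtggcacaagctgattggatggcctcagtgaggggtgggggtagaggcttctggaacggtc
Dazl (chr17:50293637-50293870, minus strand): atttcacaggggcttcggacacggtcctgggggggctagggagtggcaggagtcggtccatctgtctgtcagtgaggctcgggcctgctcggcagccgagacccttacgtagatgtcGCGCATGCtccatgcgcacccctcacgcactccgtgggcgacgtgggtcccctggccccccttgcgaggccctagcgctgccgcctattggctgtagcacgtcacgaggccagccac
Nanos3 (chr8:84176553-84176802, minus strand): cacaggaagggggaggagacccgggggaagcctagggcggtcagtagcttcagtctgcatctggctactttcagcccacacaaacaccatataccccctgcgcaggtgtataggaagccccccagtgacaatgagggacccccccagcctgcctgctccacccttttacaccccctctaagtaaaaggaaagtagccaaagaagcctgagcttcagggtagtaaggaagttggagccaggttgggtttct
The Mael, Stk31 and Tdrd1 flanks each hold 1 CACGTG, which lies 223, 55 and 11 bases before the RefSeq start. Tdrd9 holds 2, at 165 and 95 bases before its start, and in Ddx4 the motif lies 29 bases before the RefSeq start in bases that GENCODE counts as exon, which are not printed. Dazl and Nanos3 hold none. The windows also differed in CpG dinucleotides, with 38 in Ddx4, 29 in the first Stk31 window, 28 in Dazl, 24 in Mael, 20 in the first Tdrd1 window, 10 in Tdrd9 and 3 in Nanos3, against a median of 7 over all windows. CACGTG, GCGCATGC and GCGGGA each hold a CpG, and windows of like CpG content were not compared. A match in these letters is a description and not a bound site.

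In GENCODE's annotation of GRCm38 the genes lie at chr8:84173731-84185217 (Nanos3), chr17:50279395-50293636 (Dazl), chr13:112598333-112652475 (Ddx4), chr12:111971559-112068854 (Tdrd9), chr14:70372477-70429383 (Piwil2), chr19:56826209-56870012 (Tdrd1), chr6:49395604-49469501 (Stk31) and chr1:166201201-166238747 (Mael), with Dnd1 on chromosome 18. The span of Nanos3 holds the microRNA genes Mir181c and Mir181d on the same strand. Dnd1 overlaps Wdr55, on the other strand, by 140 bases. The strand setting of the counting is not given in the sources used here, so the value of Dnd1 is uncertain to the extent that it holds Wdr55 reads.

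The tables held 87494974 to 141920060 unique molecular identifiers (UMIs) per lot, and 28971 of 29103 barcodes were kept (200 to 9000 genes, at most 10% mitochondrial UMIs). Lot 29 was the shallowest, with a median of 8949 UMIs per kept cell against 11126 in lot 26 and 11595 in lot 30. Between 19 and 30 kept barcodes were shared by each pair of lots. Scrublet called 347 to 635 cells of a lot doublets. Clustering without the 9 genes gave 20 clusters, of which 1 carried the germ cell markers. These germ-like cells numbered 747 in lot 26 (7.69% of kept cells), 337 in lot 29 (3.94%) and 386 in lot 30 (3.61%). Their 10 markers, which include Pou5f1, Dppa3 and Sycp3 and none of the 9 genes, summed to 2808 to 3754 CPM (UMI counts scaled to 1e6 UMIs), against 51.9 to 62.2 CPM in pre-granulosa-like cells. Of the germ-like cells 15, 12 and 2 had a UMI of 1 of 4 Y-linked genes in lots 26, 29 and 30, and 90, 285 and 16 cells were Sertoli-like, although the material is labelled as ovary. Scrublet called 106, 30 and 61 of the germ-like cells doublets in these lots (14.2, 8.90 and 15.8%). The range was 0.517 to 1.31% in pre-granulosa-like and 8.68 to 18.3% in stromal-like cells. Called doublets were kept in the main values.

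In the germ-like cells all 9 genes were detected in every lot. CPM is here the sum of a gene's UMIs over all UMIs in the cells of a class and lot, with no scaling to length. It is used to compare classes for 1 gene and not genes with each other. Dazl, the translational regulator, was at 938, 900.3 and 1115 CPM in lots 26, 29 and 30 and had a UMI in 99.7% of germ-like cells in lots 26 and 30 and in every cell of lot 29. Ddx4 was at 236, 244 and 236 CPM and had a UMI in 92.2, 91.4 and 94.8% of them. Both genes therefore marked nearly all of the escaped germ cells, and Ddx4 differed little between lots (239 ± 4.54 CPM, SD, n = 3).

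Among the Tudor domain genes, Stk31 was at 307, 296 and 319 CPM and had a UMI in 94.4, 93.8 and 96.1% of germ-like cells. Mael, a protein of the nuclear and granule piRNA machinery, was at 100.3, 81.3 and 87.6 CPM and was found in 78.8, 70.9 and 75.1% of them. Piwil2, the PIWI protein MILI, was at 46.6, 41.4 and 42.5 CPM and was found in 59.3, 53.7 and 60.6%. For each of these genes the lots lay close together. Tdrd1, a scaffold that binds MILI, was at 16.7, 11.98 and 17.7 CPM, with a UMI in 28.5, 18.4 and 32.4% of germ-like cells. Tdrd9, a Tudor domain helicase, was at 4.22, 1.75 and 3.12 CPM, with a UMI in 9.37, 3.26 and 7.51%. Lot 29, the shallowest, had the lowest CPM and the lowest share for Stk31, Mael, Piwil2, Tdrd1 and Tdrd9 alike. CPM is already scaled to the UMIs summed, and whether depth played a part was not tested.

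The survival factors differed in how even they were. Dnd1, a partner of NANOS proteins, was at 96.2, 137 and 100.04 CPM with a UMI in 74.6, 81.6 and 80.1% of germ-like cells, and lot 29 was the highest. Nanos3 was at 17.8, 19.0 and 20.1 CPM with a UMI in 30.5, 29.4 and 35.8%. When each cell was thinned to 4000 UMIs to remove differences in depth, the share of germ-like cells with a UMI was 94.97% for Dazl, 65.6% for Stk31, 57.8% for Ddx4, 34.6% for Dnd1, 28.7% for Mael, 15.7% for Piwil2, 6.57% for Nanos3, 5.83% for Tdrd1 and 1.07% for Tdrd9 (means of 3 lots). These shares fell with depth for every gene, least for Dazl.

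**Figure D1:**
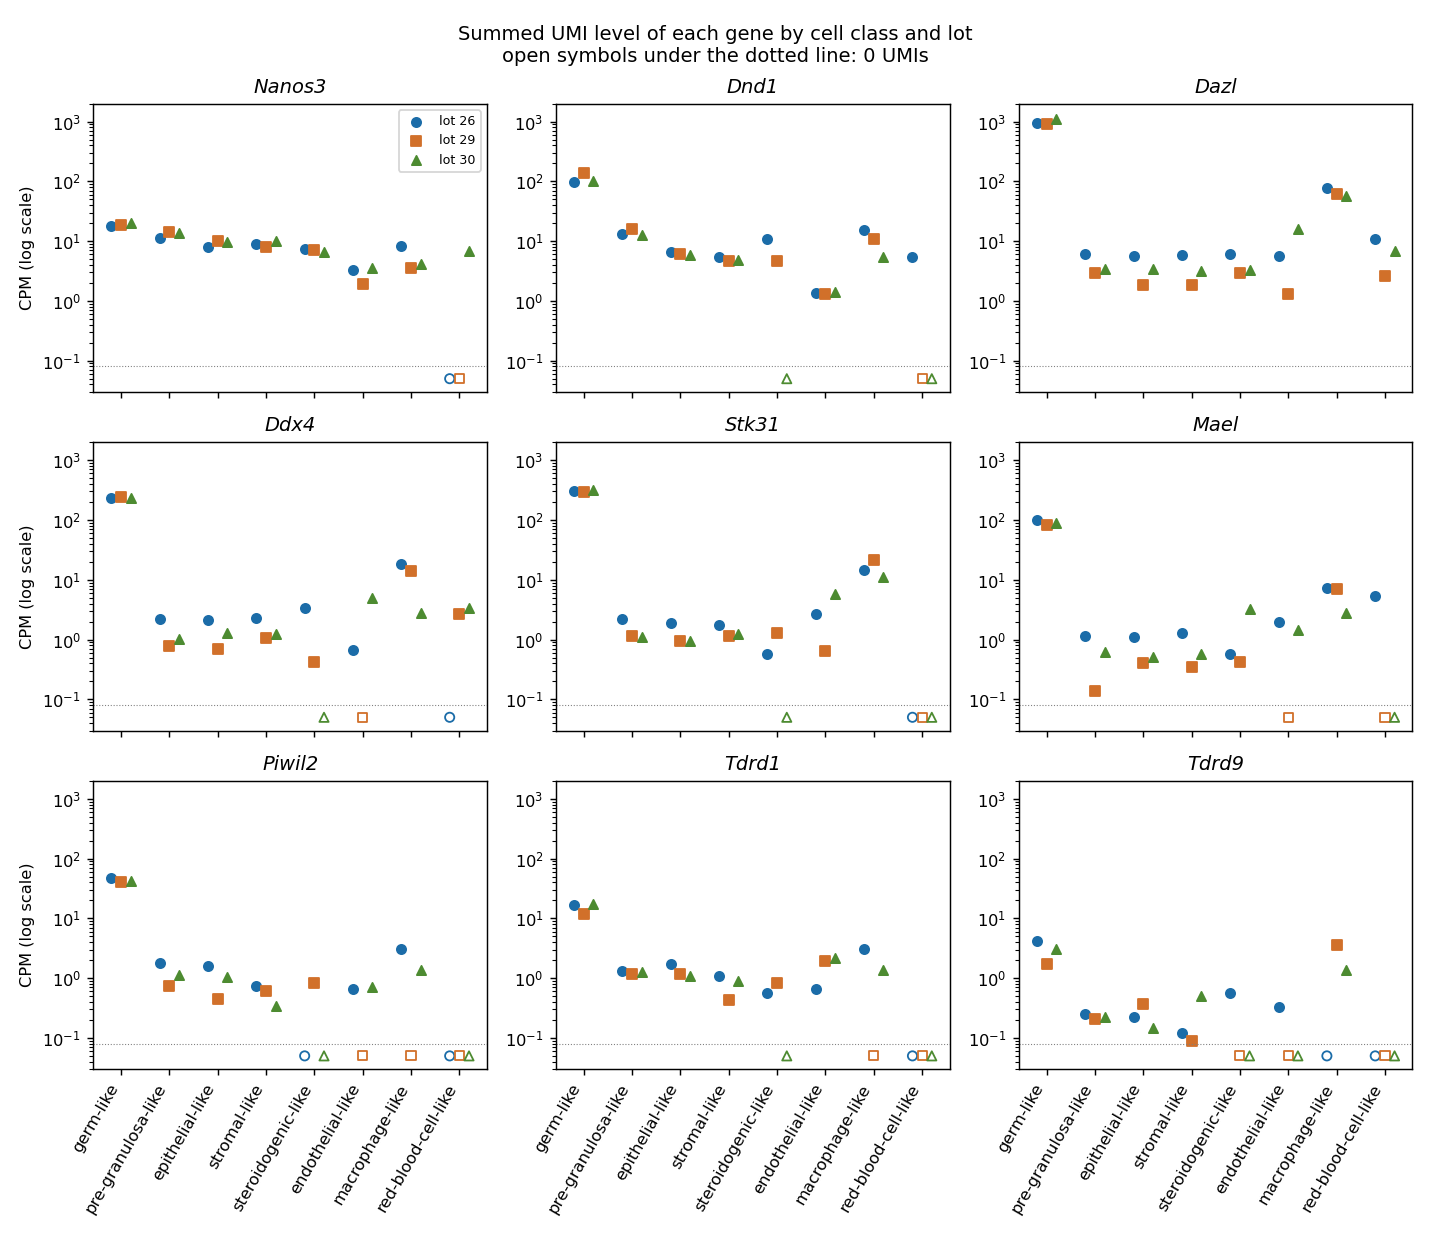
CPM on a log scale (vertical) of each of the 9 genes in 8 cell classes (horizontal), with 1 symbol per lot and open symbols under the dotted line for classes with 0 UMIs. Germ-like cells are the highest class in every lot for 8 of the genes, with Tdrd9 of lot 29 the exception, where 1 UMI in 21 macrophage-like cells gives 3.56 CPM, and Nanos3 lies within a narrow range across the large classes.

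Which of the genes set germ cells apart from the soma was tested with edgeR on UMI sums of 8 classes in 3 lots. All 9 genes were higher in germ-like cells than in the mean of the other classes, where 37.0% of the 13700 genes tested were called higher and 26.2% lower. The median log2 fold change was 6.10 for the 9 genes and 0.17 for all genes tested. Stk31 had the largest value, at 8.30 (SE 0.18, adjusted p = 4.6e-21, edgeR), followed by Dazl at 6.95 (SE 0.19), Piwil2 at 6.65 (SE 0.28), Ddx4 at 6.57 (SE 0.20) and Mael at 6.10 (SE 0.22). Tdrd1 at 4.73 (SE 0.28), Dnd1 at 4.34 (SE 0.16) and Tdrd9 at 4.15 (SE 0.54) were lower on this scale. Nanos3 had the smallest value, at 1.39 (SE 0.15, adjusted p = 1.8e-08, edgeR). The genes were held out of the clustering, but cells were classed on genes that vary with them, so these tests say how far the genes followed the classes. Several classes hold 0 UMIs of a gene in a lot, among them red-blood-cell-like cells for Piwil2, Stk31, Tdrd1 and Tdrd9 in all lots, so the fitted values depend on the prior count and are no measure of the lowest fold. Without lot 26 the value was 5.82 for Dnd1, 7.63 for Mael and 4.804 for Tdrd9, without lot 29 it was 7.28 for Piwil2, and without lot 30 it was 2.68 for Nanos3. Red-blood-cell-like cells held Dnd1 and Mael UMIs in lot 26 alone and Nanos3 UMIs in lot 30 alone.

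Counts assigned to Nanos3 were not restricted to germ cells in these lots. The span of the gene also holds Mir181c and Mir181d on the same strand, and how far reads of another transcript of this locus entered the counts was not tested. Nanos3 was at 11.5, 14.2 and 13.8 CPM in pre-granulosa-like cells, the supporting lineage of the ovary, which is 69.3% of its level in germ-like cells. In epithelial-like cells it was at 7.94, 10.0 and 9.77 CPM, and in stromal-like cells at 8.94, 7.93 and 10.1 CPM. Every pre-granulosa-like value thus lay above every epithelial-like and stromal-like value, and these overlapped each other. The margin was small, at 11.5 CPM against 10.1 and 10.0 CPM, and these classes were not tested against each other. Endothelial-like cells were lower, at 3.33, 1.94 and 3.57 CPM. Against pre-granulosa-like cells alone the log2 fold change of germ-like cells was 0.48 (SE 0.15, adjusted p = 0.0050, edgeR), while all 3 germ-like values lay above all 3 pre-granulosa-like values. For neither separation of classes was the share of all genes counted. Because somatic cells are many, germ-like cells held 23.4, 12.9 and 11.6% of the Nanos3 UMIs of lots 26, 29 and 30. At 4000 UMIs per cell the share with a Nanos3 UMI was 6.57% in germ-like and 5.29% in pre-granulosa-like cells.

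Dnd1 took a middle place. It was at 13.1, 15.7 and 12.6 CPM in pre-granulosa-like cells, 12.4% of the germ-like level, at 6.52, 6.14 and 5.84 CPM in epithelial-like cells and at 5.42, 4.70 and 4.82 CPM in stromal-like cells. The 3 classes did not overlap, and the share of all genes for which they do not was not counted. Endothelial-like cells held 1.33, 1.29 and 1.43 CPM. The overlapping gene Wdr55 was at 24.1 CPM in pre-granulosa-like, 21.6 CPM in epithelial-like, 16.7 CPM in stromal-like, 12.9 CPM in endothelial-like and 20.5 CPM in germ-like cells (means of 3 lots), and its part in the Dnd1 counts was not tested. Germ-like cells held 55.0% of all Dnd1 UMIs (mean of 3 lots, 46.8 to 63.3%).

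Dazl, Ddx4, Stk31 and Mael behaved alike outside the germ cells. In the 3 large somatic classes each was at 0.363 to 0.815% of its germ-like level, and germ-like cells held 93.6 to 96.1% of their UMIs (means of 3 lots). Dazl was at 6.06, 2.94 and 3.46 CPM in pre-granulosa-like cells, at 5.62, 1.88 and 3.39 CPM in epithelial-like cells and at 5.78, 1.83 and 3.12 CPM in stromal-like cells. Lot 26 was highest in each of these classes, and lot 29 was lowest. Germ-like cells held 14.3, 7.82 and 7.02% of all UMIs in lots 26, 29 and 30, so lots 29 and 30 stood in the other order there. In pre-granulosa-like cells Nanos3 and Dnd1 did not share the order of lots seen for Dazl. Dnd1 was highest in lot 29, as it was in germ-like cells. Dazl was counted in 4.27% of pre-granulosa-like cells at full depth (mean of 3 lots) and in 1.83% at 4000 UMIs. Endothelial-like cells held Dazl at 5.67, 1.29 and 15.7 CPM. How much of these counts is free RNA in the droplets was not tested.

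The remaining piRNA genes lay between these patterns. Piwil2 was at 2.78% of its germ-like level in pre-granulosa-like, 2.38% in epithelial-like and 1.29% in stromal-like cells. Tdrd1 was at 8.08, 8.63 and 5.26% in the same classes, and Tdrd9 at 7.49, 8.12 and 7.91%, from 29, 21 and 12 UMIs in all. The percentages for Tdrd1 and Tdrd9 rest on levels near 1 CPM or under it. In Sertoli-like cells, which were left out of the test, Piwil2 was at 5.78, 4.13 and 7.39 CPM, 13.3% of the germ-like level, while Dazl was at 12.3, 2.20 and 0 CPM there. The Piwil2 values rest on 8, 15 and 2 UMIs, with exact 95% Poisson intervals of 2.50 to 11.4, 2.31 to 6.81 and 0.895 to 26.7 CPM. They lay above the values of the large somatic classes in each lot, and the difference was not tested. At 4000 UMIs, 4 of 282 cells of lot 29 and none of 90 and 14 in lots 26 and 30 had a Piwil2 UMI.

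**Figure D2:**
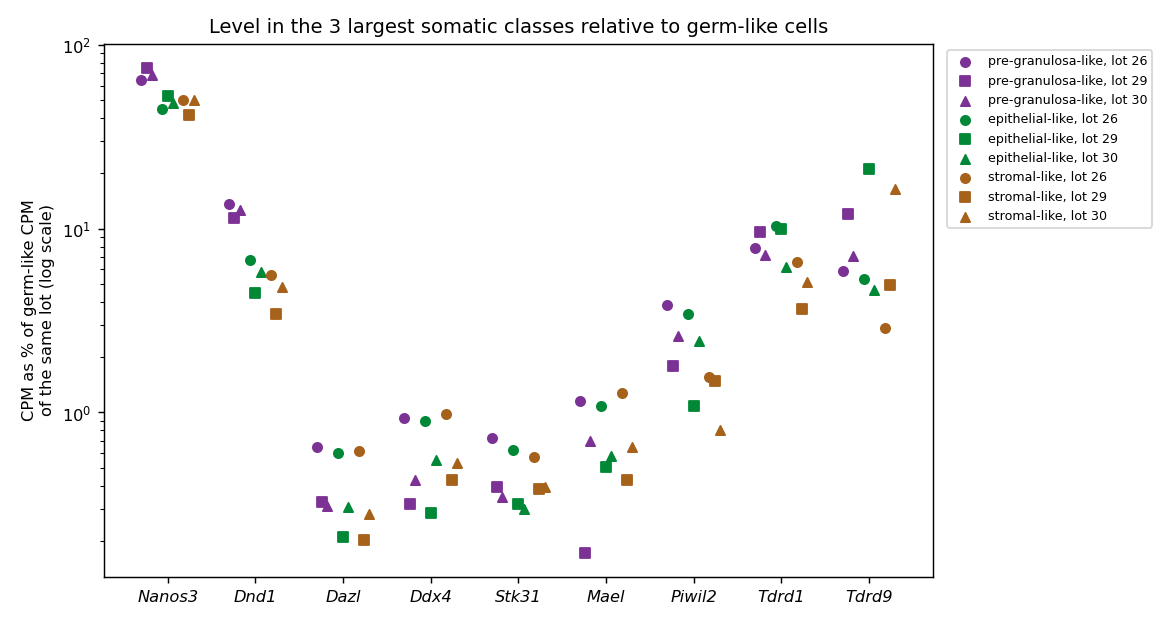
CPM in pre-granulosa-like, epithelial-like and stromal-like cells as a percent of the germ-like CPM of the same lot (vertical, log scale), for each of the 9 genes (horizontal) with 1 symbol per lot. Nanos3 lies highest, Dnd1, Tdrd1 and Tdrd9 follow, and Dazl, Ddx4, Stk31 and Mael lie near or under 1%.

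Macrophage-like cells stood out among the somatic classes. Their leading genes included Camp, Ngp, S100a9 and S100a8, which neutrophils express, beside the macrophage genes C1qa, C1qb and C1qc, so the class may not be macrophages alone. They held Dazl at 76.4, 60.6 and 57.9 CPM, 6.60% of the germ-like level, and Stk31 at 14.5, 21.4 and 11.03 CPM. Ddx4 was at 18.6, 14.3 and 2.76 CPM and Mael at 7.23, 7.13 and 2.76 CPM. Of the 135 macrophage-like cells, 9 had a UMI of 3 or more of the genes, and these held 120 of the 133 Dazl UMIs (90.2%) and 27 of the 28 Stk31 UMIs. Scrublet called 8 of these 9 cells doublets. Without the 9 cells Dazl was at 7.88 CPM and Stk31 at 0.606 CPM in the class. With all called doublets left out, Dazl was at 1.19% of its germ-like level and Stk31 at 0.487%.

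Single cells carried several of the genes at once. At 4000 UMIs the median germ-like cell had a UMI of 3 of the 9 genes in each lot, and 68.1, 72.9 and 68.1% of germ-like cells in lots 26, 29 and 30 had 3 or more. Of 1461 germ-like cells of that depth, 10 had none. At full depth the median was 6, 5 and 6 genes, and every germ-like cell had a UMI of at least 1. Of 11811 pre-granulosa-like cells at 4000 UMIs 86.1% had none of the genes and 1 cell had 3.

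**Figure D3:**
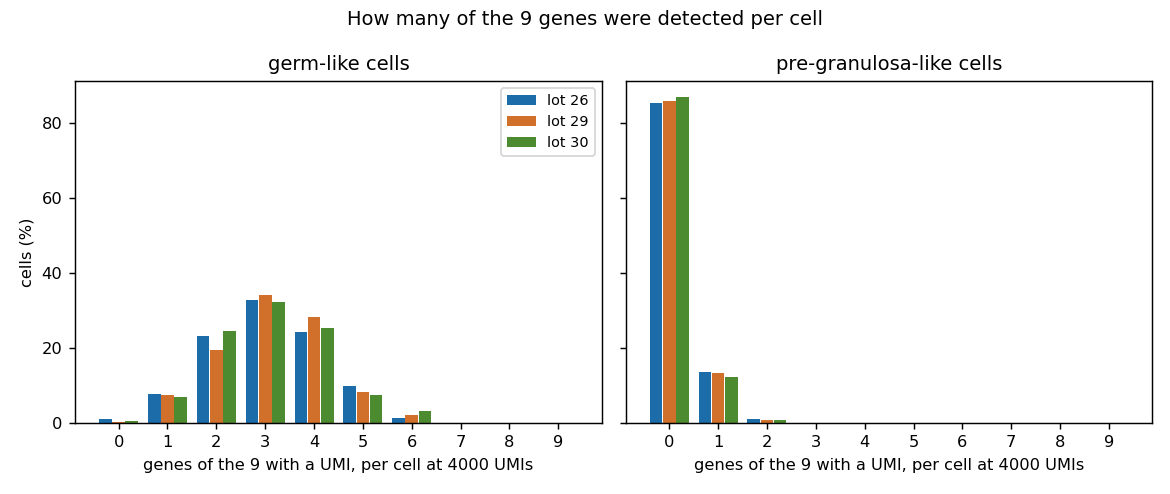
Percent of cells (vertical) by the number of the 9 genes with a UMI (horizontal) at 4000 UMIs per cell, for germ-like (left) and pre-granulosa-like cells (right), with 1 bar per lot. Germ-like cells peak at 3 genes in the 3 lots and pre-granulosa-like cells at 0.

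Outside the germ-like class 102 of 27501 cells had UMIs of 3 or more of the genes at full depth, which is 0.371% (exact Clopper-Pearson 95% interval 0.303 to 0.450%). There were 56 in lot 26 (0.625%), 10 in lot 29 (0.122%) and 36 in lot 30 (0.349%). Of these cells 40 were pre-granulosa-like and 34 epithelial-like. Scrublet called 31.4% of them doublets, against 4.81% of the other cells outside the class, and their median depth was 20004 UMIs against 10339. The 10 germ cell markers summed to 230 CPM in them, against 37.3 CPM in outside cells with none of the genes and 3120 CPM in germ-like cells. The median cell had a UMI of 0 of the 10 markers in both groups of outside cells, against 8 in germ-like cells. The cells with 3 or more of the genes held far fewer germ cell marker UMIs than germ-like cells. The same 10 markers named the germ-like cluster and were not held out of the clustering. That difference therefore follows from how cells were classed and does not show what these cells are. Nanos3 and Dnd1, which the large somatic classes also held, counted toward the 3.

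The other genes of the pathways were taken as lists, which were chosen with earlier results of these data known. Of 21 further piRNA pathway genes, 17 were tested and all 17 were higher in germ-like cells (37.0% of all genes were), with a median log2 fold change of 5.42. The largest values were those of Mov10l1, the RNA helicase that feeds piRNA processing, at 8.08 (SE 0.26), Tex19.1, a repressor of retrotransposons, at 7.62 (SE 0.27), and the Tudor domain gene Tdrd12 at 7.37 (SE 0.28). Their levels were 123 ± 6.25, 162 ± 14.2 and 32.6 ± 4.45 CPM in germ-like cells (SD, n = 3) and 0.685, 1.53 and 0.319 CPM in pre-granulosa-like cells. Piwil1, the PIWI protein of later spermatogenesis, Tdrd6, Henmt1 and Spocd1 were too low to be tested.

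Of 18 further germline RNA regulators, 15 were tested and 13 were higher in germ-like cells (37.0% of all genes were). Over those tested the median log2 fold change was 3.73. Boll, a DAZ family relative of Dazl, was highest at 8.36 (SE 0.39), with 17.4 ± 2.00 CPM in germ-like and 0.117 CPM in pre-granulosa-like cells. Cpeb1, a regulator of polyadenylation, was at 7.33 (SE 0.28) and Lin28a, which blocks let-7 maturation, at 7.02 (SE 0.25). Among 5 partners that every cell uses, which methylate arginines or hold Tudor domains, 3 were higher (37.0% of all genes were). These were Wdr77 at 0.998 (SE 0.15), Prmt5 at 0.76 (SE 0.16) and Tdrd3 at 0.65 (SE 0.13), while Clns1a at 0.22 and Snd1 at 0.20 did not pass.

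The genes outside all lists whose pattern was most like that of the 9 genes were Hsf2bp, Calcoco2, Sohlh2, Gm1564 and Ccdc172. Their Pearson r to the mean centred profile of the 9 genes was 0.985, 0.984, 0.982, 0.982 and 0.980 over the 24 sums, from 7630 candidates. Of the 9 genes themselves, Stk31 followed the other 8 most closely (r = 0.972) and Nanos3 least (r = 0.50). These sums share 8 classes and 3 lots, and a contrast of germ-like with all other sums sets most of each r.

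Germ-like cells were then split by Stra8, since cells with and without it occurred in each lot. A Stra8 UMI was found in 666, 297 and 357 germ-like cells of lots 26, 29 and 30, and none in 81, 40 and 29. The median depth was 22051, 18134 and 23966 UMIs with and 16344, 17910 and 20735 UMIs without Stra8. Of the 9 genes 4 were higher in cells with Stra8, 2 were lower and 3 did not pass the test (edgeR), where 6.54% of the 11247 genes tested were higher and 6.14% lower. The median log2 fold change was 0.68 for the 9 genes and 0.01 for all genes.

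Ddx4, Mael, Stk31 and Tdrd1 were the higher genes. Stk31 was at 108, 146 and 103 CPM without and at 325, 316 and 335 CPM with Stra8 in lots 26, 29 and 30. The log2 fold change was 1.41 (SE 0.17, adjusted p = 1.5e-04, edgeR), and the groups did not overlap. Mael rose from 40.7, 31.3 and 32.0 CPM to 105, 87.9 and 92.0 CPM, by 1.38 (SE 0.16, adjusted p = 1.2e-04, edgeR). Ddx4 rose from 101, 125 and 106 CPM to 248, 259.9 and 247 CPM, by 1.15 (SE 0.15, adjusted p = 3.4e-04, edgeR). Every value with Stra8 lay above every value without it for each of these genes. The share of all genes tested that separate in this way was not counted. Tdrd1 went from 6.90, 5.01 and 2.78 CPM, which is 10, 4 and 2 UMIs, to 17.5, 12.9 and 18.9 CPM, with a log2 fold change of 1.58 (SE 0.33, adjusted p = 0.0072, edgeR). The Tdrd1 call was lost without lot 26 (adjusted p = 0.072), without lot 30 (adjusted p = 0.097) and in thinned cells without (adjusted p = 0.193) and with the lot as a replicate block (adjusted p = 0.146), all by edgeR.

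Nanos3 and Dnd1 moved the other way. Nanos3 was at 35.2, 50.1 and 41.7 CPM without and at 16.3, 14.9 and 18.5 CPM with Stra8, a log2 fold change of -1.37 (SE 0.19, adjusted p = 4.7e-04, edgeR). Dnd1 was at 146, 230 and 214 CPM without and at 91.9, 125 and 91.1 CPM with Stra8, a change of -0.97 (SE 0.20, adjusted p = 0.0076, edgeR). Neither gene overlapped between the groups, for which no share of all genes was counted. Without lot 30 the Dnd1 call was lost (log2 fold change -0.84, adjusted p = 0.114, edgeR). The genes that preserve PGCs were therefore lower, and several granule and piRNA genes higher, in the cells with Stra8.

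Dazl, Piwil2 and Tdrd9 did not pass the test. Dazl was at 624, 789 and 810 CPM without and at 965, 915 and 1139 CPM with Stra8, a log2 fold change of 0.39 (SE 0.15, adjusted p = 0.099, edgeR). It was higher with Stra8 in 3 of 3 lots, and with the lot as a replicate block it passed, at 0.40 (SE 0.05, adjusted p = 1.8e-09, edgeR). It also passed with no filter on low counts (adjusted p = 0.028), without lot 29 (adjusted p = 0.044) and with doublets left out (adjusted p = 0.042), and it did not in the other edgeR fits of this split without a block. Piwil2 was at 30.4, 25.04 and 54.3 CPM without and at 48.1, 43.5 and 41.6 CPM with Stra8 (0.30, SE 0.20, adjusted p = 0.38, edgeR), and the groups overlapped through lot 30. Tdrd9 rested on 4, 1 and 1 UMIs in cells without Stra8, which is too few to show a difference at this depth, and it passed under no other setting of this split.

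**Figure D4:**
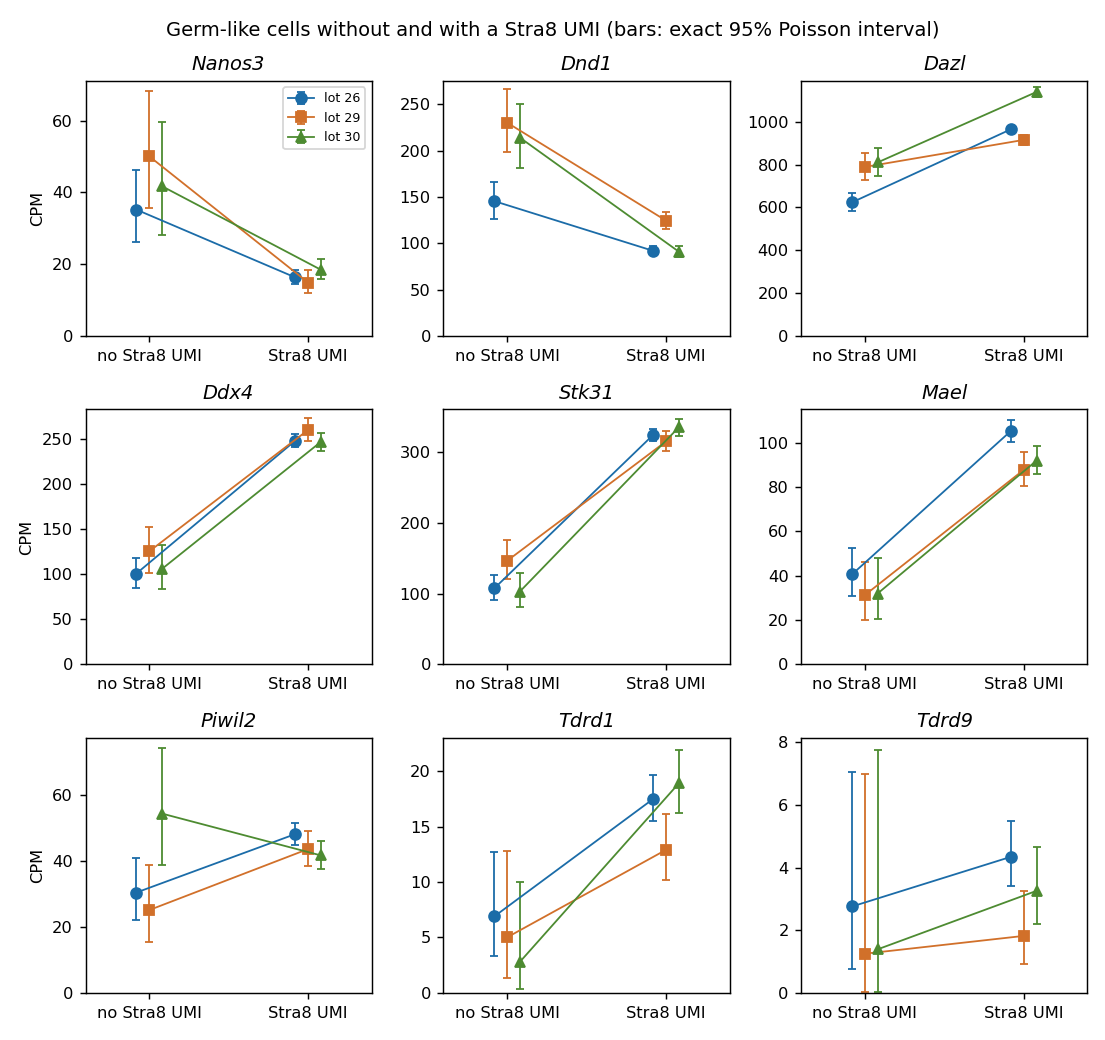
CPM (vertical, linear from 0) of the 9 genes in germ-like cells without and with a Stra8 UMI (horizontal), with lines joining the values of a lot and bars for the exact 95% Poisson interval of each count. Nanos3 and Dnd1 fall and Ddx4, Stk31, Mael and Tdrd1 rise in all 3 lots, and the lots disagree for Piwil2.

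Stk31, Ddx4, Mael, Nanos3 and Dnd1 had the same directions over several steps when germ-like cells were binned by Stra8 UMIs after thinning to 4000 UMIs. The bins of 0, 1 to 2, 3 to 5 and 6 or more Stra8 UMIs held 375, 442, 385 and 259 cells. Stk31 was at 179, 273, 397 and 499 CPM over these bins (means of 3 lots), Ddx4 at 165, 229, 273 and 345 CPM, and Mael at 55.1, 78.3, 109 and 137 CPM. Piwil2 and Dazl, which did not pass the test above, also rose, Piwil2 at 34.9, 40.7, 45.5 and 54.8 CPM. Dazl was at 779, 987, 1088 and 1157 CPM. Tdrd1 was at 8.58, 16.5, 14.1 and 21.2 CPM and did not follow the order of the bins throughout. Nanos3 was at 31.3, 17.2, 11.4 and 5.70 CPM, the last from 4, 2 and 0 UMIs, and Dnd1 at 157, 115, 106 and 61.2 CPM. Lot 29 did not follow every step for Piwil2, Dazl and Nanos3. The bins were described and not tested.

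**Figure D5:**
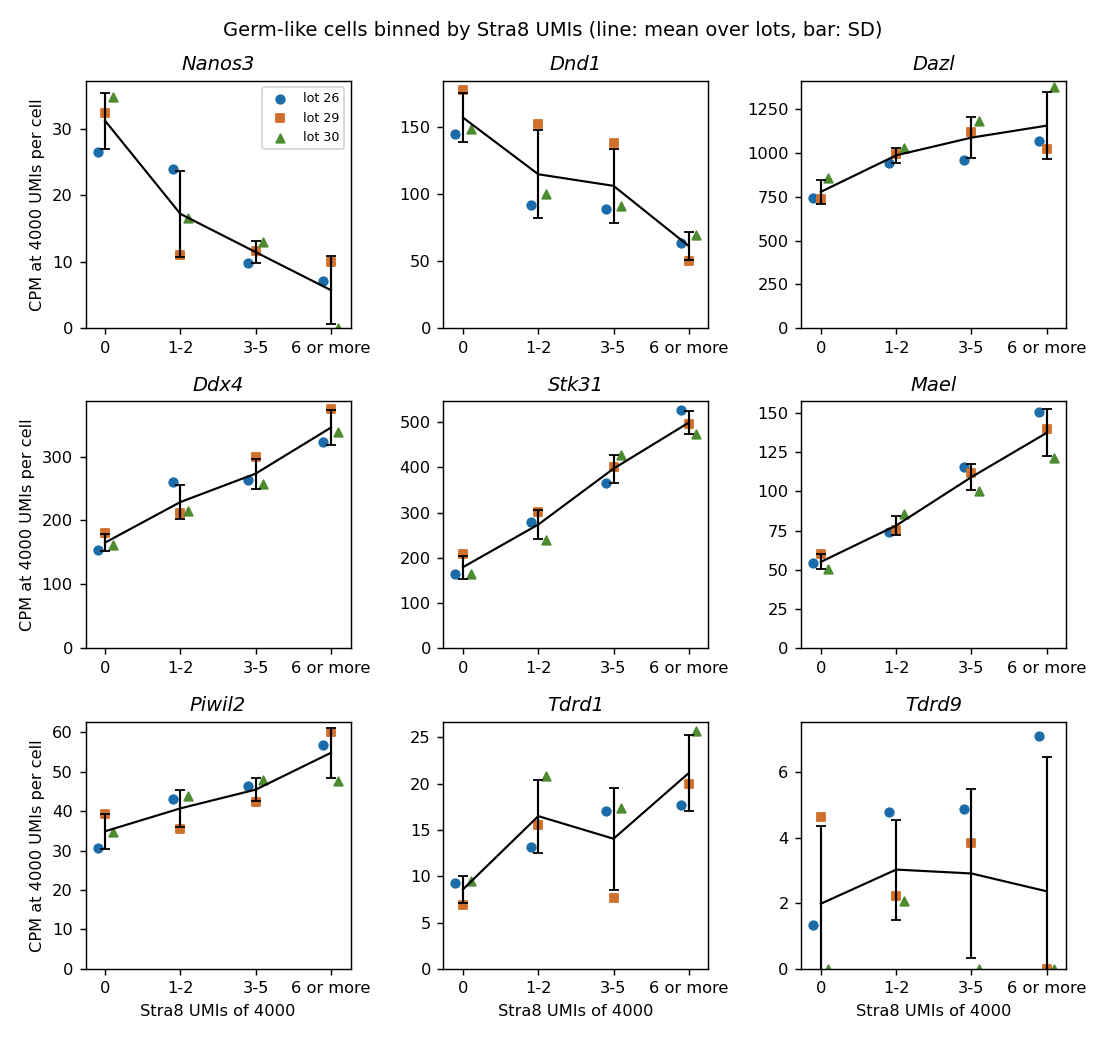
CPM (vertical, linear from 0) of the 9 genes in germ-like cells thinned to 4000 UMIs, by Stra8 UMIs (horizontal), with 1 symbol per lot, the mean over lots as a line and its SD as bars. Stk31 goes from 179 to 499 CPM and Nanos3 from 31.3 to 5.70 CPM between the end bins, while Tdrd9 shows no order.

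At a clustering resolution of 1.2 a group of 113 germ-like cells (74, 22 and 17 by lot) separated that had the most Sycp3, a protein of the meiotic chromosome axis, at 1242, 1721 and 1175 CPM. In these cells Stk31 was at 675, 762 and 677 CPM and Mael at 183, 183 and 169 CPM, while Dnd1 was at 16.5, 5.39 and 32.4 CPM and Nanos3 at 1.91, 2.69 and 7.47 CPM. The Nanos3 values rest on 3, 1 and 3 UMIs. In the remaining germ-like cells Stk31 was at 272, 269 and 303 CPM and Dnd1 at 104, 144 and 103 CPM. Dazl was at 1188, 1158 and 1399 CPM in the group and at 914, 885 and 1103 CPM in the remaining cells. Tdrd9 was at 10.8, 8.08 and 4.98 CPM in the group, from 17, 3 and 2 UMIs, and at 3.59, 1.39 and 3.04 CPM in the remaining cells. Tdrd1 was at 17.1, 21.5 and 9.96 CPM in the group and at 16.6, 11.4 and 18.1 CPM in the remaining cells, so it was not higher in all lots (fitted log2 fold change 0.08, SE 0.29). The group was defined by clustering, so its values are a description.

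The lists set these changes beside their pathways. Of 10 meiotic entry genes 7 were higher with Stra8 (6.54% of all genes were) and none lower. Among the higher were Sycp1 (2.77, SE 0.21), the cohesin gene Rec8 (2.76, SE 0.22) and the axis gene Sycp3 (2.22, SE 0.18). Of 8 PGC and pluripotency factors 7 were lower (6.14% of all genes were) and none higher. They were led by Nanog (-1.80, SE 0.26), Tfap2c (-1.70, SE 0.18) and Prdm14 (-1.42, SE 0.26). Nanos3 and Dnd1 thus had the sign of the PGC list, and Ddx4, Mael, Stk31 and Tdrd1 that of the meiotic list.

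The further piRNA genes were split in the same way, with 5 of 16 tested higher and 2 lower (6.54 and 6.14% of all genes). Gtsf1, a partner of PIWI proteins, rose from 6.52 ± 4.33 to 26.8 ± 5.67 CPM (2.02, SE 0.38), and Tex15, which acts in PIWI-directed DNA methylation, from 48.0 ± 19.0 to 130 ± 40.7 CPM (1.37, SE 0.24). Morc1, a germline silencing factor, fell from 19.9 ± 11.5 to 4.97 ± 1.04 CPM (-2.22, SE 0.36, SD over 3 lots for each level). The number higher was 8 with the lot as a replicate block, 1 without lot 26 and 7 without lot 29. The number lower was 0 without lot 26, 1 without lot 30, and 0 in thinned cells. The share of all genes called under these settings was not counted.

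Of 15 further RNA regulators tested, 5 were higher and 1 lower with Stra8 (6.54 and 6.14% of all genes were). Boll was at 2.64 ± 1.19 CPM without and 18.8 ± 1.94 CPM with Stra8 (2.76, SE 0.35), and the DEAD box genes Ddx25 (1.41, SE 0.23) and Ddx43 (1.35, SE 0.34) were also higher. The lower gene, named after its value was seen, was Trim71 (-0.72, SE 0.13), an RNA-binding ubiquitin ligase of early embryonic cells. The number higher was 2 without lot 26 or without lot 30, where the number lower was 0. The share of all genes called in these fits was not counted either. None of the 5 general partners passed the test in edgeR, and their log2 fold changes lay between -0.14 and 0.27.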

How the data were processed

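The authors found barcodes with UMI-tools, used STAR 2.7 and the GRCm38 genome for alignment, dropped multiply mapped reads, and deposited UMI counts per gene and cell made with featureCounts 2.0.1 and UMI-tools, without normalization. The annotation release and strand setting are not given in the sources used here. Intervals cover counting error only. The SE of a fold change is its size over the square root of edgeR's F.

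Kept cells of 3 lots were merged, scaled to 10000 per cell and clustered in Seurat 5.3.0 (R 4.3.3) at resolution 0.8 on 50 principal components of 2000 variable genes, less 23 of the 53 held-out list genes among them. Clusters were named from marker lists with none of the 9 genes. Doublets were called with Scrublet in scanpy 1.11.5 (expected 8%) and kept. UMIs were summed per class and lot (at least 10 cells a sum, the smallest with 184947 UMIs) and entered the quasi-likelihood test of edgeR 4.0.16 after filterByExpr and TMM scaling, with Benjamini-Hochberg adjustment across all genes and a threshold of 0.05. The code was tested on simulated data. Sertoli-like and unnamed cells were left out of the sums. DESeq2 1.42.0 was an alternative. The members and lists were chosen with earlier results of these data known. Genes named are the 9 members, in each list the 3 past the threshold with the largest log2 fold change, and the 5 genes (at least 10 CPM in germ-like cells of each lot) with the pattern most like the members.

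Lots are separate pools of embryos. Sums of a lot come from 1 pool and are paired by construction: the median correlation of deviations within 84 pairs of class sums was 0.440, with 68 pairs above 0.1, and it was 0.483 to 0.588 for the 3 pairs of the Stra8 split. The main fits have no lot term. The values of 1 list gene are not reported here.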

Additional observations from a re-analysis of the deposited data

How the results depend on the processing

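All 9 members stayed higher in germ-like cells under each alternative that tested them: DESeq2, RLE scaling, the lot as replicate block, no filter on low counts, each lot left out, doublets left out, resolutions 0.4 and 1.2, members put back into the clustering, single comparison classes, and leaving out germ-like cells with a Y-linked UMI, which was added after the data were seen. For Stra8, resolutions 0.4 and 1.2 held the same germ-like cells and could change nothing. Under the 13 other alternatives Ddx4, Mael, Stk31 and Nanos3 kept their calls, Dnd1 kept its call in 12 and Tdrd1 in 8. The 13 include the Sycp3-high cluster against the other germ-like cells, which is no split by Stra8. Its groups come from clustering of the same data, so its calls are a description. Dazl stayed short of the threshold in 7 of 13, and Tdrd9 in 8 of 9, the exception being the Sycp3-high cluster, where its log2 fold change was 1.68 and that of Tdrd1 was 0.08. The number of members lower with Stra8 was 1 to 2 when a lot was left out. For the other piRNA genes with Stra8 the number higher was 9 without a low-count filter, 8 with the lot as replicate block, 10 in the Sycp3-high cluster and 1 to 7 when a lot was left out. The number lower was 0 in thinned cells with or without the replicate block, 1 in the Sycp3-high cluster and 0 to 2 with a lot left out. For the other RNA regulators the number higher was 2 in thinned cells and 2 to 4 with a lot left out, and the number lower was 2 in the Sycp3-high cluster and 0 to 1 with a lot left out. Of the general partners 2 were lower in the Sycp3-high cluster, and 1 was higher in germ-like cells against epithelial-like cells alone. Without lot 29, 1 RNA regulator was lower in germ-like cells, and the range was 0 to 1. The replicate block changed no other call of a member than that of Dazl. The share of all genes called was counted for the main fits alone, so the numbers under the alternatives have no such share beside them. The cause of these changes was not tested.

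Thinning to 4000 UMIs lowered the share of germ-like cells with a UMI to 57.8% for Ddx4, 94.97% for Dazl, 34.6% for Dnd1, 6.57% for Nanos3, 28.7% for Mael, 15.7% for Piwil2, 65.6% for Stk31, 5.83% for Tdrd1 and 1.07% for Tdrd9, as fewer UMIs were drawn, and without doublets the Dazl share was 100%. The median number of members per germ-like cell was 5.67 at full depth (mean of lots) and 4.0 at 8000 UMIs. With 2 or more members asked for, 1071 cells lay outside the germ-like class. In macrophage-like cells without doublets Dazl was at 1.19%, Mael at 2.53% and Stk31 at 0.487% of the germ-like level. Depth limits Tdrd9, Tdrd1 and all classes under 200 cells.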
